A study of Mus musculus with 9 samples.

Results

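MHC class I and peptide loading genes were followed across meningeal lymphatic endothelial cells (MLECs) taken from control mice and from mice carrying one of a pair of intracranial tumors. The 10 genes were chosen by symbol: B2m, H2-K1, H2-D1, H2-Q8, H2-Q9, H2-T23, Tap1, Tap2, Tapbp and Nlrc5. All 10 were among the 24321 genes listed in the expression table, and 9 of them were among the 9955 genes with at least 1 FPKM in at least 3 libraries, which were the genes tested. Nlrc5 did not reach that level and was not tested. H2-Q8 and H2-Q9 reached it only through libraries of tumor-bearing mice, so their inclusion already required a difference from the control, and they are given as levels, with no test against Control. For H2-Q8 these were the GL261 libraries, so it has no test between GL261 and B16 either. FPKM is the number of sequenced fragments scaled to transcript length and to the fragments mapped in the library, so levels of different genes can be compared per length.

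The study asked how MLECs respond to a brain tumor. Male C57BL/6 mice aged 10 weeks at collection had received PBS (Control) or, per the labels, 100000 cells of a tumor line. These were cells of the GL261 glioma line about 3 weeks earlier, or of the B16 melanoma line about 2 weeks earlier. The labels give no time after PBS. The study's results give 2 weeks for all groups, and its methods give 2 to 3 weeks. Its methods also give smaller doses of cells for the subdural model. Per the labels the injection was made into the cisterna magna, whereas the study's methods describe a subdural injection. Each of 3 libraries per group was made by Smart-seq2 from 10 sorted cells of meninges pooled from 6 mice, with a gate on CD31, CD45 and LYVE-1 in the labels and with PDPN named in the text of the study. Each tumor stands for 1 cell line, and per the labels the 2 were collected at different times, so tumor type and time cannot be told apart.

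MHC class I molecules carry peptides from inside the cell to its surface, where CD8+ T cells and natural killer cells read them. The molecule is a heavy chain, encoded by one of the many H2 genes of the mouse, paired with the invariant light chain β2-microglobulin, the product of B2m. Peptides cut by the proteasome enter the endoplasmic reticulum through the transporter TAP1–TAP2 and are loaded with the help of tapasin, the product of Tapbp, while NLRC5 is a transactivator of these genes. Interferons are known to raise most of them, and endothelial cells, lymphatic ones included, express class I and respond to interferon.

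In mm9, the build of the expression table, B2m lies on chromosome 2 (121973422 to 121978819, plus strand). The other members except Nlrc5 lie on chromosome 17 where they have an entry: H2-K1 at 34132962 to 34137278 (minus strand), Tapbp at 34052844 to 34066235, Tap1 at 34324498 to 34334170, Tap2 at 34340472 to 34353266, H2-D1 at 35399675 to 35404444, H2-Q8 at 35531071 to 35534971 (all plus strand) and H2-T23 at 36166718 to 36169800 (minus strand). Nlrc5 lies on chromosome 8 at 96996663 to 97051172. The spans are those of the mm9 gene annotation used here, in which H2-Q8 is a processed transcript rather than a protein-coding gene, and 9 of the 10 members had an entry.

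Because the members move partly together, their upstream sequences are shown before the values. The sequences are the 250 bases before the transcription start in RefSeq on GRCm38.p6, a later build than that of the expression table, with coordinates of that build. They are shown for the light chain, both classical heavy chains, H2-Q7 as the most abundant H2-Q row in GL261, H2-T23 and Tap1. Capitals mark matches on either strand to AANNGAAA, the core of the interferon regulatory factor motif, to the NF-κB motif, to TGACG, a core of the X2 box of class I promoters, and to CCAAT, which the Y box carries in inverted form. The 4 motifs were chosen after these promoters had been read, and a match is a description of letters, not a bound site.
B2m, chr2:122147437-122147686, plus strand: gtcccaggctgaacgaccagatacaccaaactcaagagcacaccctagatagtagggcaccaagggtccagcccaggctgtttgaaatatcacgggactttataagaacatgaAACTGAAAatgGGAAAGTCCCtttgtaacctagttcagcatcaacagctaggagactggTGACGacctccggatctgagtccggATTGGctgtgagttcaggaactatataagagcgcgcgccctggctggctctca
H2-K1, chr17:34000348-34000597, minus strand: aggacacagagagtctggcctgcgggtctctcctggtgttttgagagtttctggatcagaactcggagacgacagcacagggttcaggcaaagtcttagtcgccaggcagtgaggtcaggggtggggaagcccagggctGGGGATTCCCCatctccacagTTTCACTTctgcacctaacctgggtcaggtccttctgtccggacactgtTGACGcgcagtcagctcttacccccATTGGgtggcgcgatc
H2-D1, chr17:35262844-35263093, plus strand: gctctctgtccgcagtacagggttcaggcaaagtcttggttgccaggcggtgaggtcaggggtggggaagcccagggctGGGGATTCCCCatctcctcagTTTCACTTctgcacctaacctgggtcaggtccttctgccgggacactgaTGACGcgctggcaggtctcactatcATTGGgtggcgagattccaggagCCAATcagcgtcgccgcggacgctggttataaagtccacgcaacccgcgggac
H2-Q7, chr17:35438905-35439154, plus strand: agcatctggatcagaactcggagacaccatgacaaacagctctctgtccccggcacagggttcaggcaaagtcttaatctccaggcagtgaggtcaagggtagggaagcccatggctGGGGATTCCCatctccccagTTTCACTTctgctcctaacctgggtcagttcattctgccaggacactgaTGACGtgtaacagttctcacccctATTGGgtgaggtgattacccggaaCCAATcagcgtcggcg
H2-T23, chr17:36032702-36032951, minus strand: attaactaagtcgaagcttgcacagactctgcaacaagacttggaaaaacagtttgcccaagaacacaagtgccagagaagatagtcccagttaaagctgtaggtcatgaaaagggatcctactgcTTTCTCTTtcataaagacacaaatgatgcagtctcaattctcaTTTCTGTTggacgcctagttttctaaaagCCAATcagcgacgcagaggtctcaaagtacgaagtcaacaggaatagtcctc
Tap1, chr17:34187306-34187555, plus strand: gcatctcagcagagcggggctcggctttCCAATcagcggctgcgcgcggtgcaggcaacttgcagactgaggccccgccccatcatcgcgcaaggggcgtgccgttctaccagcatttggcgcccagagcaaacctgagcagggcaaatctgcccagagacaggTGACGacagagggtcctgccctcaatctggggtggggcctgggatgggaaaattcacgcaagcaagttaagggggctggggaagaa

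B2m, H2-K1, H2-D1 and H2-Q7 held all 4 motifs. In H2-K1 and H2-D1 the start of the NF-κB match stood 21 bases before that of AANNGAAA, which stood 49 bases before TGACG, which stood 25 bases before CCAAT. In H2-Q7 the same distances were 20, 49 and 24 bases. In B2m the NF-κB match followed AANNGAAA by 11 bases, and the next distances were 59 and 25 bases. The NF-κB matches of H2-K1 and H2-D1 are 2 overlapping stretches that also match on the opposite strand. Among 32851 promoters of this length, AANNGAAA was found in 21.3%, the NF-κB motif in 7.25%, TGACG in 17.8% and CCAAT in 33.8%, and 27 (0.0822%) held all 4. Those 27 belonged to 26 genes, of which H2-K1, H2-D1, H2-Q4, H2-Q7, H2-T22, H2-M2, H2-M3, H2-Aa and B2m encode MHC chains or their light chain. The promoter of H2-T23 held AANNGAAA at 2 places and CCAAT, and that of Tap1 held TGACG and CCAAT. Tapbp held only CCAAT, at 2 places.

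Reads cannot always be assigned to a single H2 gene, and the length of that overlap was measured in the mm9 transcripts. Of all stretches of 150 bases, the length of 1 read, none in B2m, H2-K1, Tap1, Tap2, Tapbp or Nlrc5 also occurred in another gene. The share was 1.27% in H2-D1, 0.320% in H2-T23 and 3.34% in H2-Q8, the last mostly with H2-Q7 (2.43%). With stretches of 50 bases the share rose to 35.6% for H2-Q8, 12.5% for H2-D1, 10.3% for H2-K1 and 7.49% for H2-T23. H2-Q9 had no entry in the annotation, so its own overlap was not measured and the share of H2-Q8 leaves out stretches held in common with H2-Q9. H2-L, H2-Q1 and H2-Q5 had no entry either, so the shares, those of H2-K1 and H2-D1 included, leave out stretches held in common with them. H2-Q8 and H2-Q9 are treated as uncertain, and the sum over the 9 listed H2-Q rows stands beside them.

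The expression table gives no counts, so the depth behind a value cannot be read from it and no counting interval is given. The aligned reads per library, which a sequencing table of the study lists, served as a covariate in an alternative fit. In Control, 7303 to 8688 genes were above 0, against 9456 to 10852 in GL261 and 8736 to 9950 in B16, so that fewer genes were detected in every control library than in any tumor-associated one. The FPKM of a library summed to 652636 to 693117 (Control), 768691 to 888312 (GL261) and 701951 to 764489 (B16). Depth and tumor status cannot be told apart, and Tbp, a gene that every cell uses, was listed at 0 in 2 control libraries. The sum over 10 such genes, Tbp, Actb and Gapdh among them, was 15987 to 19110 FPKM (Control), 24436 to 25267 FPKM (GL261) and 20109 to 25890 FPKM (B16). The lymphatic markers Prox1, Flt4 and Lyve1 were above 0 in all 9 libraries, but the sum over 10 lymphatic markers ranged from 13712 to 17296 FPKM in Control, and from 1393 to 3250 (GL261) and 2549 to 7054 (B16) with tumors. The sum over 17 blood endothelial markers was 2934 to 3985, 8350 to 16541 and 7249 to 9340 FPKM. Ly6c1 and Ly6a alone had 4375 and 6650 FPKM in GL261 replicate 1. Of the 16 tested, 13 differences of GL261 from Control were above 0 and 3 below. Among the former, Cd34 had 0.370 to 14.3 FPKM in Control and 330 to 478 FPKM in GL261. Among the latter, Aqp1 had 537 to 733 FPKM in Control and 34.6 to 115 FPKM in GL261, and Cldn5 had 1497 to 1702 and 698 to 890 FPKM. Of 20 leukocyte markers 5 were at 0 in every library (among them Ptprc, which encodes CD45, Cd3e, Cd3g and Cd8a), and the summed level was 301 to 609.8 FPKM in Control libraries, 58.5 to 861 in those of GL261 and 43.1 to 309 in those of B16. The highest sum was that of GL261 replicate 2, which also had the highest Lyz2 (324 FPKM), and Control replicate 1 stood apart by Acta2 (505 FPKM). The sum over 10 fibroblast and mural markers was 16 to 589 FPKM (Control), 0.0851 to 5.84 FPKM (GL261) and 0.703 to 11.4 FPKM (B16), and Dcn, a fibroblast marker, had 15.7 to 44.9 FPKM in Control and at most 0.146 FPKM in any other library. Of 9 melanoma markers 5 were at 0 throughout, among them Mlana and Tyr, and the sum was 8.27 to 60.1 FPKM (Control), 0 to 8.58 FPKM (GL261) and 0 to 4.38 FPKM (B16). Of 10 glioma or neural markers 3 were at 0 throughout, among them Gfap and Sox2, but the sum was 0 to 0.739 FPKM (Control), 12 to 23.8 FPKM (GL261) and 37.0 to 53.6 FPKM (B16). S100b, a glial and melanocytic marker, had 37.0, 36.5 and 25.3 FPKM in B16, at most 3.00 FPKM in GL261 and at most 0.739 FPKM in Control. The part of any of these in the results was not tested.

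**Figure D1:**
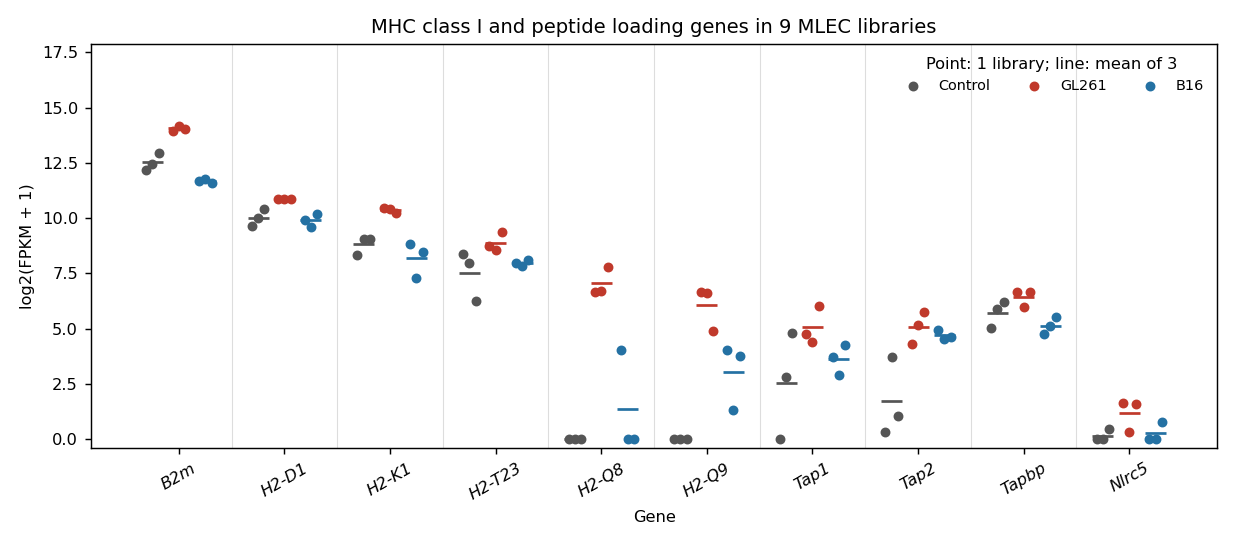
Level of each of the 10 genes as log2(FPKM + 1) in each library (points) with the mean of 3 libraries (line), for Control, GL261 and B16. B2m lies highest in GL261 (15798 to 18703 FPKM) and lowest in B16 (3114 to 3525 FPKM), with the control libraries between, and H2-Q8 and H2-Q9 lie at 0 in the control.

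B2m was the most abundant member in every library, and its level separated all 3 groups. The control libraries had 4629.6, 5650.3 and 7943 FPKM, the GL261 libraries 15798, 18703 and 16928 FPKM, and the B16 libraries 3268, 3525 and 3114 FPKM. Every GL261 library lay above every control library and every B16 library lay below, with no overlap between any pair of groups. The group means were 6074 ± 1697 (Control), 17143 ± 1465 (GL261) and 3302 ± 207 FPKM (B16; SD, n = 3 in each). In rank from the top of the table, B2m held place 7 to 16 in Control, place 3 or 4 in GL261 and place 25 to 35 in B16. Of all FPKM, it took 0.696% to 1.22% (Control), 1.88% to 2.2% (GL261) and 0.407% to 0.502% (B16). In such bulk libraries, fewer cells of a type and less RNA per cell cannot be told apart.

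Differences were tested with limma on log2(FPKM + 1), with the Benjamini-Hochberg adjustment over all 9955 genes, and all differences below are on that scale. The 3 libraries of a group came from separate pools of mice per the labels. Between GL261 and B16, B2m was 2.37 higher in GL261 (95% interval 1.99 to 2.76, adjusted p = 0.000200), a ratio of the means of 5.19. It was the single gene of all those tested with an adjusted p under 0.05 in this comparison (percent called 0.01), although 548 genes (5.5%, and 3.29% on the higher side) had an unadjusted p under 0.05, among them 4 of the 7 members other than H2-Q8 and H2-Q9, all higher. Leaving out any 1 library kept the difference between 2.31 and 2.43. Against Control, B2m was higher in GL261 by 1.53 (SE 0.175, adjusted p = 0.00103), with a ratio of the means of 2.82. In B16, B2m fell by 0.84 against Control (SE 0.175, adjusted p = 0.0329), a ratio of 0.544. This last call was lost without any 1 library other than Control replicate 1, with adjusted p values of 0.0524 to 0.121 and the same direction.

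H2-D1 and H2-K1 encode the classical heavy chains that present peptides to CD8+ T cells. H2-D1 stood at 789, 1021 and 1344 FPKM in Control, at 1886, 1895 and 1877 FPKM in GL261 and at 963, 772 and 1163 FPKM in B16. The GL261 libraries differed from each other by little (SD 9.28 FPKM) and lay above all others, while B16 and Control overlapped. The difference between GL261 and Control was 0.88 (SE 0.231, adjusted p = 0.0652) and did not pass. Without Control replicate 3 it was 1.07, with an adjusted p of 0.0403. Without any other library it did not pass, with an adjusted p of up to 0.192, and 2 of 20 alternatives were past the threshold. Between GL261 and B16 it was 0.98 (interval 0.48 to 1.49, adjusted p = 0.253), and between B16 and Control -0.11 (interval -0.61 to 0.40, adjusted p = 0.868).

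H2-K1 stood at 319.8, 533 and 527 FPKM in Control, at 1405, 1348 and 1191 FPKM in GL261 and at 451, 156 and 352 FPKM in B16. GL261 again lay above all other libraries, with a ratio of the means of 2.86 to Control and 4.11 to B16, and B16 overlapped with Control. H2-K1 was higher in GL261 than in Control by 1.55 (SE 0.370, adjusted p = 0.0428). That call was lost without any 1 of the Control or GL261 libraries or without B16 replicate 3 (adjusted p = 0.060 to 0.154), while the difference stayed between 1.31 and 1.67. Against B16 the difference was 2.17 (interval 1.36 to 2.97, adjusted p = 0.115). With H2-K1, H2-D1 and H2-L summed, GL261 was 1.12 above Control (SE 0.234, adjusted p = 0.0256). The call on the sum was lost without Control replicate 1 or without any GL261 library (adjusted p = 0.0736 to 0.108). The 2 chains did not keep 1 proportion, since the ratio of H2-K1 to H2-D1 was 0.635 to 0.745 with GL261, but 0.392 to 0.522 with PBS and 0.202 to 0.469 with B16.

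H2-T23 encodes the heavy chain of Qa-1, a nonclassical molecule whose peptides are read by the CD94–NKG2 receptors of natural killer cells. It had 330.5, 251 and 75.0 FPKM in Control, 423, 379 and 653 FPKM in GL261 and 251, 230.4 and 273 FPKM in B16. GL261 lay above both other groups without overlap, and B16 fell inside the wide range of Control. None of its differences passed, with 1.35 for GL261 against Control (interval 0.30 to 2.40, adjusted p = 0.166), 0.44 for B16 against Control (interval -0.60 to 1.49, adjusted p = 0.723) and 0.91 for GL261 against B16 (interval -0.14 to 1.96, adjusted p = 0.974).

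The H2-Q genes encode nonclassical heavy chains, those of the Qa-2 group among them, and their summed level was higher in GL261 than in Control. All 3 control libraries had H2-Q8 at 0, whereas it stood at 99.6, 105 and 223 FPKM with GL261 and at 15.5, 0.00179 and 0.00196 FPKM in B16. H2-Q9 was listed at 0, 0 and 1e-06 FPKM in Control, at 101, 95.7 and 28.4 FPKM in GL261 and at 15.5, 1.48 and 12.5 FPKM in B16. In GL261 replicates 1 and 2 and in B16 replicate 1 both rows lay within 10% of the larger value. Every GL261 library lay above all others for both rows, and in B16 only 1 library held more than a trace of H2-Q8. Between GL261 and B16 the difference for H2-Q9 was 3.02 (adjusted p = 0.506) and did not pass. H2-Q8 was among the genes tested only through the GL261 libraries, so no test of it between GL261 and B16 is given.

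Summed over the 9 H2-Q rows, of which H2-Q7 was the largest in every GL261 library, the level reached 534 to 713 FPKM with GL261, against 8.69 to 49.2 FPKM with PBS and 46.3 to 51.2 FPKM with B16. Every GL261 library lay above every other library, and B16 overlapped with Control. Single rows differed, since H2-Q6 overlapped between GL261 (0.00862 to 17.8 FPKM) and B16 (0.000328 to 16.1 FPKM) and H2-Q2 was listed at 0 throughout. The summed row was 4.49 higher in GL261 than in Control (SE 0.561, adjusted p = 0.00176). Against B16 it was 3.63 higher (interval 2.40 to 4.85, adjusted p = 0.0949) and did not pass. Without 1 library the adjusted p ranged from 0.00103 (without Control replicate 1) to 0.560. Of 20 alternatives, 2 were past the threshold. Between B16 and Control the difference was 0.86 (interval -0.37 to 2.09, adjusted p = 0.513).

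The heavy chain rows together were higher in GL261 and differed in their makeup. The sum over all 22 listed class I heavy chain rows was 4396 to 4588 FPKM with GL261, 1518 to 2103 FPKM with PBS and 1294 to 1901 FPKM with B16. The H2-Q rows made up 12.2% to 15.6% of that sum with GL261, 0.573% to 2.49% with PBS and 2.44% to 3.95% with B16. H2-D1 made up 41.1% to 43.1% with GL261, 51.7% to 63.9% with PBS and 52.8% to 61.2% with B16. The ratio of B2m to the summed heavy chains was 3.23 ± 0.483 (Control), 3.80 ± 0.413 (GL261) and 2.05 ± 0.588 (B16; SD, n = 3 in each). With H2-K1 and H2-D1 alone below the line it was 4.02, 5.36 and 2.72. These shares and ratios were not tested.

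**Figure D2:**
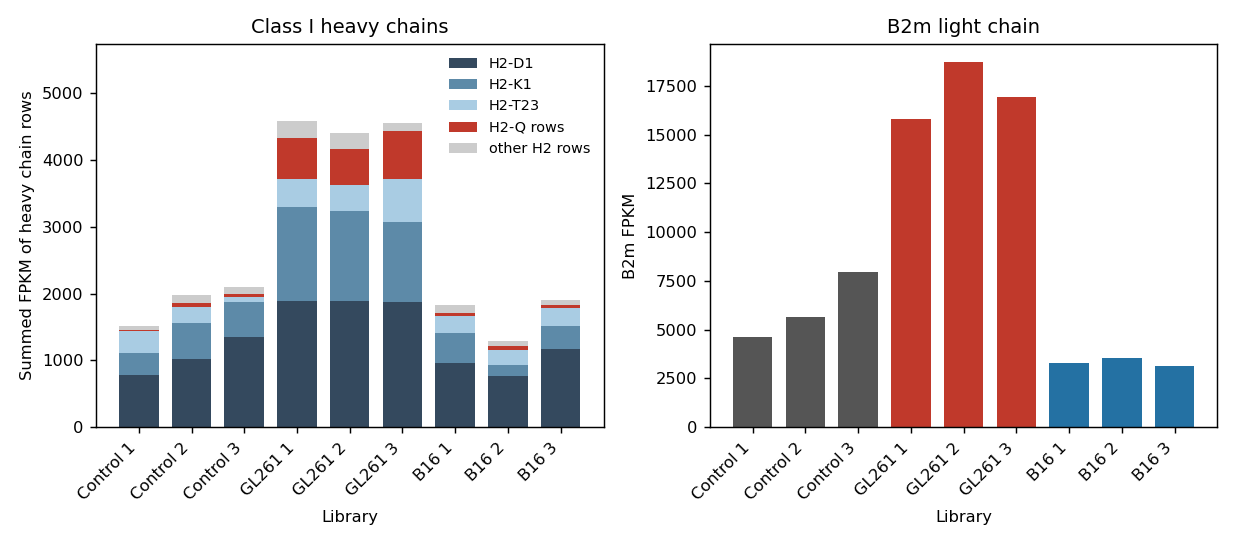
Stacked bars give the FPKM of class I heavy chain rows in each library (H2-D1, H2-K1, H2-T23, the 9 H2-Q rows and all other H2 class I rows), and the bars on the right give B2m FPKM. The heavy chain sum is 4396 to 4588 FPKM in GL261 and at most 2103 FPKM elsewhere, and the H2-Q rows form 12.2% to 15.6% of it in GL261.

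Tap2, a subunit of the peptide transporter, lay higher with either tumor than in Control. It had 0.270, 12 and 1.10 FPKM in Control, 19.0, 35.3 and 52.2 FPKM in GL261 and 29.9, 21.9 and 23.8 FPKM in B16. Both tumor groups lay above Control and overlapped with each other. With GL261 and B16 joined, as the study joined them, Tap2 was 3.18 higher than in Control (SE 0.732, adjusted p = 0.0292). Against Control alone, the difference was 3.37 for GL261 (interval 1.46 to 5.29, adjusted p = 0.0613) and 2.99 for B16 (interval 1.08 to 4.91, adjusted p = 0.113), and GL261 and B16 differed by 0.38 (interval -1.54 to 2.30, adjusted p = 1). Without Control replicate 2, the control library with the highest Tap2, both passed, at 4.37 (adjusted p = 0.0104) and 3.99 (adjusted p = 0.0179). Without any other library neither passed, with adjusted p values up to 0.205 for GL261 and 0.247 for B16. Of 20 alternatives, 2 were past the threshold for GL261 and 1 for B16.

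Tap1, the partner of Tap2, was listed at 0, 5.94 and 26.6 FPKM in Control, at 26.4, 19.8 and 64.0 FPKM in GL261 and at 12, 6.42 and 18.0 FPKM in B16. The control libraries spread over the range of B16 and into the lower part of that of GL261, and only GL261 and B16 did not overlap. The difference from Control was 2.53 for GL261 (interval 0.17 to 4.89, adjusted p = 0.257) and 1.09 for B16 (interval -1.27 to 3.45, adjusted p = 0.696).

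Tapbp had 31.9, 57.7 and 71.8 FPKM in Control, 101, 62.9 and 99.8 FPKM in GL261 and 26.0, 33.4 and 44.8 FPKM in B16. GL261 and B16 did not overlap, and Control overlapped with both. The differences were 0.74 for GL261 against Control (interval -0.31 to 1.78, adjusted p = 0.474), -0.57 for B16 against Control (adjusted p = 0.629) and 1.31 for GL261 against B16 (interval 0.27 to 2.36, adjusted p = 0.749).

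Nlrc5, the transactivator, did not exceed 2.08 FPKM in any library. It was listed at 0, 0 and 0.368 FPKM in Control, at 2.08, 0.272 and 2.03 FPKM in GL261 and at 0, 0 and 0.741 FPKM in B16. All groups overlapped, and it was listed at 0 in 4 of the 9 libraries.

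**Figure D3:**
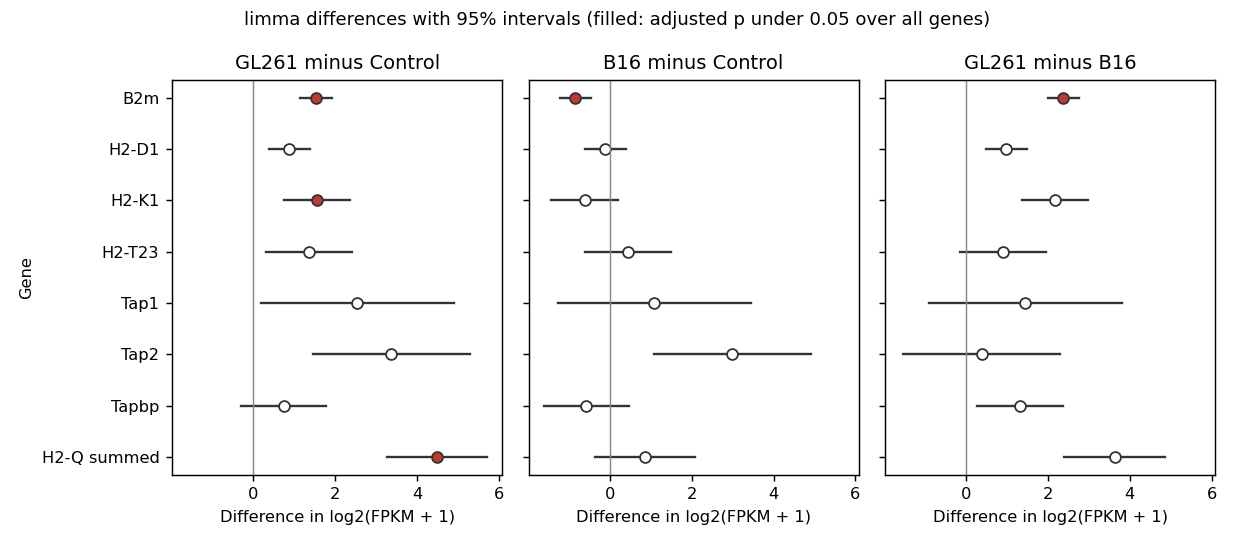
Differences in log2(FPKM + 1) from limma with 95% intervals for the 7 members other than H2-Q8, H2-Q9 and Nlrc5 and for the summed H2-Q rows, in GL261 against Control, B16 against Control and GL261 against B16. Filled points had an adjusted p under 0.05 over all genes; against Control these are B2m, H2-K1 and the H2-Q sum in GL261 and B2m, on the lower side, in B16, and between GL261 and B16 it is B2m.

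Counts over the members are given for the 7 that reached 1 FPKM in at least 1 control library. In GL261 against Control 2 of 7 were called higher (B2m and H2-K1) and none lower, where 2.58% of all genes tested were called higher and 3.49% in either direction. At an unadjusted p under 0.05, 6 of 7 passed, against 16.9% of all genes. All 7 differences were above 0, with a median of 1.53 against 0.23 over all genes, and 5 members lay higher without overlap, as did 13.7% of all genes. With aligned reads as a covariate, all 7 remained above 0 (0.71 to 5.11, median 1.84), as they did with the number of genes listed above 0 (0.019 to 2.19, median 1.09), but no member was called in either fit. In B16 against Control 1 of 7 was called, B2m on the lower side, where 0.502% of all genes were called lower and 2.11% in either direction, and 2 passed unadjusted, against 15% of all genes. There 3 differences were above 0 and 4 below, with a median of -0.11 against 0.20 over all genes. Tap2 lay above Control without overlap (10.2% of all genes did), and B2m below (7% of all genes). Between GL261 and B16, 6 of 7 members, all but Tap2, lay higher in GL261 without overlap, as did 7.13% of all genes, and the median difference was 1.31 against 0.01.

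With GL261 and B16 joined against Control, Tap2 was called, 1 of 7 members, where 3.93% of all genes were called and 2.9% on the higher side. It was also the only one of the 7 with an unadjusted p under 0.05, against 19% of all genes. The call on Tap2 was lost without Control replicates 1 or 3, any GL261 library, or B16 replicates 2 or 3 (adjusted p up to 0.0954). Tap2 alone of the 7 did not overlap with Control, against 6.08% of all genes on the higher side. B2m, which lay on opposite sides of Control in the 2 tumors, differed by 0.34 in the joined groups (interval -0.94 to 1.62, adjusted p = 0.808). The power of a ROC curve between Control and the joined tumors was computed here from the deposited FPKM of all genes above 0 in any library. It was above 0.4 for 6 of the 10 members, H2-Q8 and H2-Q9 among them, and for 42.1% of 13553 genes, and was 0 for B2m. The study used a ROC test in Seurat with the same threshold and reported far fewer genes, so its selection is not reproduced here.

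Of the class I heavy chains outside the list, H2-Q7 was higher in GL261 than in Control. Of 17 listed rows 12 were tested, and 9 of these reached 1 FPKM in a control library. Of the 9, H2-Q7 was called higher in GL261 than in Control, where 2.58% of all genes were. H2-Q7, the most abundant H2-Q row in GL261, had 4.15, 41.6 and 36.0 FPKM in Control, 361, 275 and 399 FPKM in GL261 and 15.0, 40.0 and 9.62 FPKM in B16, a difference of 4.09 between GL261 and Control (SE 0.788, adjusted p = 0.0160). H2-Q5 had 0, 2.82 and 0 FPKM in Control and 36.9, 26.7 and 36.3 FPKM in GL261, with 0, 4.51 and 0.470 FPKM in B16. It entered the test only through the GL261 libraries, so no test of it is given. All 9 differences of GL261 from B16 were above 0, with a median of 1.16, and limma called none (3 at an unadjusted p under 0.05, against 5.5% of all genes). H2-Q5 and H2-K2, which are among those 3, and H2-T10 reached the tested level only with the GL261 libraries. H2-T24 reached it with 1 library of each group. The part of H2-Q5, H2-K2 and H2-T10 in the direction count, the median and the unadjusted count therefore already required values of at least 1 FPKM in GL261. H2-T22, a nonclassical chain, was at most 0.000878 FPKM in Control and 8.10 to 67.2 FPKM in GL261. In B16 it had 36.5, 18.6 and 6.5e-05 FPKM, which overlapped with both other groups. H2-M3, which presents formylated peptides, had 29.5 to 42.3 FPKM (Control), 14.4 to 53.6 FPKM (GL261) and 14.0 to 17.8 FPKM (B16), and differed by -0.23 between GL261 and Control (adjusted p = 0.886).

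Of 12 tested genes that supply peptides, limma called none in any of the comparisons, and 2 had an unadjusted p under 0.05 in GL261 against Control, 2 in B16 against Control, 4 in GL261 against B16 and 1 in the joined tumors, where 16.9%, 15%, 5.5% and 19% of all genes did. The immunoproteasome subunits Psmb8, Psmb9 and Psmb10 were all highest in GL261 without overlap. Psmb8 had 0, 33.4 and 107 FPKM in Control, 501, 331 and 262 FPKM in GL261 and 80.4, 65.0 and 101 FPKM in B16, with a difference of 4.51 between GL261 and Control (SE 1.27, adjusted p = 0.082). Psmb9, whose start lies beside that of Tap1 on the opposite strand, had 219 to 245 FPKM in GL261 and at most 74.5 FPKM elsewhere (4.16 against Control, adjusted p = 0.220). Psmb10 had 102 to 162 FPKM in GL261 and at most 97.0 FPKM elsewhere (1.27, adjusted p = 0.674). The proteasome activators Psme1 and Psme2 differed between GL261 and B16 by 1.18 (adjusted p = 0.334) and 1.10 (adjusted p = 0.935), without overlap.

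Of 10 tested genes of folding and trimming in the endoplasmic reticulum and of 21 tested regulators, limma called none in any of the comparisons. At an unadjusted p under 0.05, 2 and 4 of them passed in GL261 against Control, 0 and 2 in B16 against Control, 2 and 1 in GL261 against B16, and 0 and 3 in the joined tumors. Of all genes, 16.9%, 15%, 5.5% and 19% did in these comparisons. The median difference of GL261 from Control was 0.61 for the former and 0.06 for the latter. Calr, Canx and Pdia3, chaperones of the loading complex, differed from Control by 0.26, 0.14 and 0.48 in GL261, with overlapping libraries. Erap1, which trims peptides, differed by 1.95 (adjusted p = 0.447), and Tapbpl, the tapasin-related editor, by 0.83 in GL261 and by -2.19 in B16 (adjusted p = 0.747 and 0.355). Of the regulators, Irf1, an interferon-induced activator of class I genes, had 0.328, 10.7 and 40.4 FPKM in Control, 61.2, 51.9 and 135 FPKM in GL261 and 33.4, 109 and 47.9 FPKM in B16 (3.15 for GL261 against Control, adjusted p = 0.138). Rfx5, a subunit of the X-box factor, was 1.97 to 8.95 FPKM in Control, at most 1.18 FPKM in GL261 and at most 2.60 FPKM in B16. It reached the tested level only with the control libraries, so no test of it against Control is given. Its part in the unadjusted counts of regulators above already required high values in Control.

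**Figure D4:**
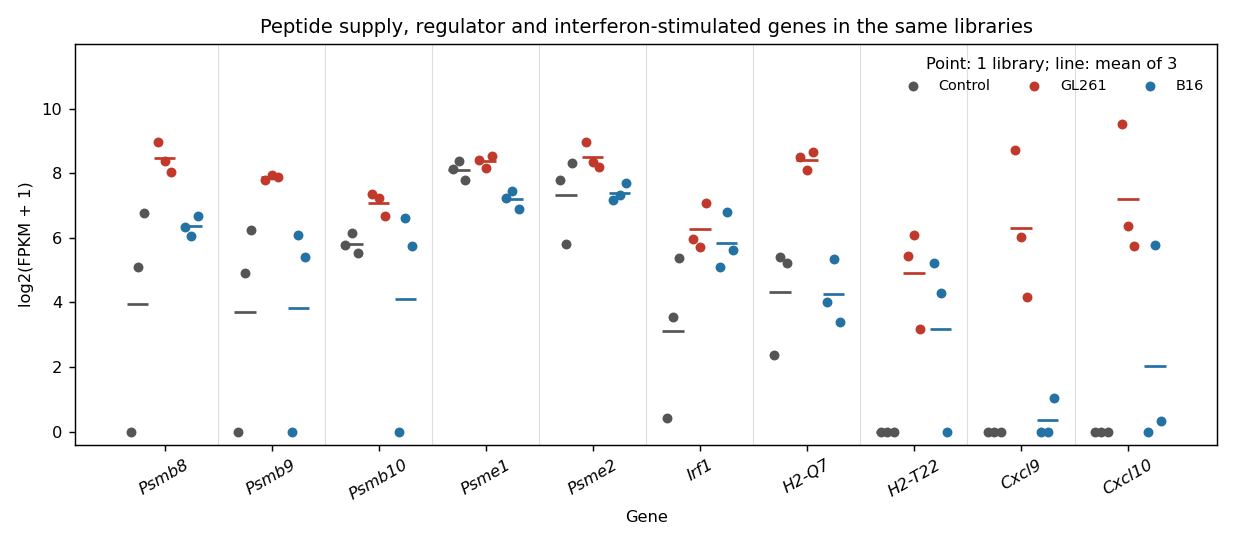
Levels as log2(FPKM + 1) of the immunoproteasome subunits, the proteasome activators, Irf1, H2-Q7, H2-T22, Cxcl9 and Cxcl10 in each library (points) with the mean of 3 libraries (line). Psmb8, Psmb9, Psmb10 and H2-Q7 lie higher in every GL261 library than in any other library, and Irf1 overlaps between GL261 and B16.

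The 5 genes whose profile over the 9 libraries was most like that of B2m were found among 1889 genes with a mean log2(FPKM + 1) of at least 5 and values above 0 in all libraries. Likeness was the mean absolute difference of profiles of log2(FPKM + 1), each centred on its own mean. H2-K1 came first at 0.37, then Mtpn (0.42), Cox20 (0.42), Tapbp (0.44) and Rpl12 (0.47). H2-D1 was 6th at 0.48 and H2-T23 was 328th at 0.83. Mtpn had 75.6 ± 19.8 FPKM in GL261 against 48.7 ± 20.6 in Control and 26.8 ± 4.92 in B16, and Rpl12 had 963 ± 129 against 574 ± 124 and 456 ± 91.9 (SD, n = 3 in each).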

How the data were processed

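Gene expression had been measured by the authors in 9 libraries of sorted MLECs, amplified over 18 PCR cycles and sequenced as paired reads of 150 bases. Per the submitters' processing notes, reads were aligned with TopHat2 (2.0.12) to mm9 and quantified with Cufflinks (2.2.1). How reads matching several H2 copies were divided is not given in the sources used here. The deposited values are FPKM per gene, as the authors computed them, with no read counts, so no count test was possible and depth per library cannot be read from the expression table. Aligned reads listed in the study's sequencing table entered only an alternative, as a covariate. Groups were taken from the sample labels. The members and the gene lists were chosen with earlier results of these data known.

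Here FPKM were taken as log2(FPKM + 1). Genes with at least 1 FPKM in at least 3 libraries were fitted with limma (3.58.1, R 4.3.3; lmFit and eBayes with a trend) over the 3 groups, or over Control and the joined tumors, two-sided, adjusted by the Benjamini-Hochberg procedure, the threshold being 0.05. The fit was tested on simulated data. Alternatives changed the pseudocount (0.1), the scaling, the filter, the variance trend, depth or the replicate number as a covariate, the libraries fitted, and the H2 rows summed. All 10 members are named. Of the pathway lists, genes past the threshold in any comparison and a fixed set of chaperone, proteasome and regulator genes are named (1 of them is not reported here), and of interferon-stimulated genes those with the 2 largest and 2 smallest differences between GL261 and B16. Promoters were read from a RefSeq table (GRCm38.p6). H2-Q8, H2-Q9, Tap2 and Nlrc5 were not matched there. Shared stretches were counted with Python 3.11.15 in mm9 transcripts. Whether the authors' quantification used strand is not given in the sources used here.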

Additional observations from a re-analysis of the deposited data

Results flagged for a closer look

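B2m differed between the 2 tumors: its change against the shared control was upward in GL261 (1.53 on the log2(FPKM + 1) scale) and downward in B16 (-0.84), and the difference between both changes was 2.37 (limma, adjusted p = 0.000200), the single gene of 9955 past the threshold. All 3 GL261 libraries lay above, and all 3 B16 libraries below, every control library. Tumor type, time after injection and library depth cannot be told apart in this design, and their part in the difference was not tested.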

How the results depend on the processing

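B2m between GL261 and B16 was past the threshold in 19 of 20 alternatives, with differences of 2.04 to 2.52. It missed it without a variance trend (adjusted p = 0.188). B2m in GL261 against Control passed in 17 of 20, the summed H2-Q rows in 18 of 20 and H2-K1 in 5 of 20. B2m in B16 against Control passed in 7 of 20, with the same direction in all. Over all members, comparisons and alternatives, 623 of 708 differences kept direction and side of the threshold, 19 turned direction, 58 lost a call and 8 gained one. Most of the 708 belong to differences that were not called in the main fit, and only a called difference can lose a call. The share that kept its side is therefore no measure of how stable the calls are. H2-Q8 and H2-Q9, which have no test against Control in the report, are included in these counts, as is H2-Q8 between GL261 and B16. In GL261 against Control each member kept its direction in all alternatives. The FPKM give no depth, and controls listed the fewest genes, so depth limits every comparison with Control.

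With aligned reads as a covariate, 9 genes were called for tumor against Control, 2 for GL261 and 5 for B16, and no member (0) against Control. With genes listed above 0 as a covariate these counts were 11, 6 and 16, again with no member. For tumor against Control, the former turned B2m (-1.45), H2-D1 (-0.34), H2-K1 (-1.03), H2-T23 (-0.049), Tapbp (-0.99), the H2-Q sum (-0.042) and the H2-K1, H2-D1 and H2-L sum (-0.53), and the latter B2m (-1.21), H2-D1 (-0.45), H2-K1 (-1.11), Tapbp (-1.10) and the sums (-0.21 and -0.62). The latter also turned Tap2 between GL261 and B16 (-0.13). Quantile normalization turned H2-D1 (-0.052) and its sum (-0.043) in the joined tumors, and rescaling to 1000000 turned Tapbp (-0.14). The cause was not tested.

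Genes called in the joined tumors numbered 254 with any value above 0 and 212 with all 9 above 0 (245 to 444 without 1 library). In GL261 against Control they numbered 218, 225, 230 with the replicate block and 197 with only the compared libraries (105 to 363 without 1 library), and in B16 against Control 135, 96 and, with only the compared libraries, 38 (69 to 274 without 1 library). Between GL261 and B16, quantile normalization gave 2 and no trend 6 (1 to 4 without 1 library).

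Members called, with H2-Q8 and H2-Q9 counted, in the joined tumors were 1 with H2 copies summed, quantile normalization, all 9 above 0 or the replicate block, 0 with any value above 0 and 6 by ROC power (0 to 2 without 1 library). In GL261 against Control they were 2 without a trend (3 to 4 without 1 library). In B16 against Control they were 2 with a pseudocount of 0.1 and 0 with any value above 0, no trend or only the compared libraries (0 to 1 without 1 library). Between GL261 and B16 they were 0 without a trend (1 to 2 without 1 library). These counts rest partly on tests of H2-Q8 and H2-Q9 that the report does not give, so they show only how the settings move a count. Of all genes, the main fit called 3.93% in the joined tumors, 3.49% in GL261 and 2.11% in B16 against Control, and 0.01% between GL261 and B16. By ROC power it was 42.1% of 13553 genes.

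Leaving out 1 library turned Tapbp in the joined tumors (-0.25 without Control replicate 1, -0.094 without GL261 replicate 1 and -0.092 without GL261 replicate 3, range up to 0.33). In B16 against Control it turned H2-D1 (0.086 without Control replicate 3, 0.043 without B16 replicate 2, range from -0.30), H2-T23 (-0.20 without Control replicate 3, range up to 0.86) and Tap1 (-0.18 without Control replicate 1, range up to 2.22).

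The replicate numbers did not pair the samples. Deviations of libraries with the same number correlated between -0.0334 and 0.0443. Among the member calls given in the report, the block ended only that on H2-K1 in GL261 against Control (limma adjusted p = 0.0781). The ratio of B2m to heavy chains moved to 4.02, 5.36 and 2.72 with H2-K1 and H2-D1 alone.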

Other observations

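Of 26 interferon-stimulated genes, a group that answers the same signals as class I genes, 24 were tested. Of these, 21 reached 1 FPKM in at least 1 control library, and the counts are over the 21. In GL261 against Control 3 were called higher by limma (Ifit3, Oasl2 and Irf7, each at that level in 1 control library) and none lower, where 2.58% of all genes were called higher, and the median difference was 2.07 against 0.23 over all genes. In B16 against Control none was called (3 at an unadjusted p under 0.05, against 15% of all genes), 10 differences were above 0 and 11 below, and the median was -0.64. All 21 differences between GL261 and B16 were above 0, with a median of 2.44 against 0.01 over all genes. Without overlap 15 lay higher in GL261, as did 7.13% of all genes. Cmpk2, counted among the 21 and among these 15, reached the tested level only with the GL261 libraries. Limma called none of the 21 after adjustment (13 at an unadjusted p under 0.05, against 5.5% of all genes). Of all 24, the 2 largest were those of the T cell chemokines Cxcl9 and Cxcl10. Cxcl9 was listed at 0 in all control libraries, at 422, 63.8 and 17.2 FPKM in GL261 and at 0, 0 and 1.06 FPKM in B16 (5.96 between GL261 and B16). Cxcl10 was listed at 0 in all control libraries, at 735, 81.9 and 52.8 FPKM in GL261 and at 0, 53.4 and 0.258 FPKM in B16 (5.18). Both chemokines, like Rsad2, were among the genes tested only through the GL261 libraries. Their place in this ranking already required high values there, and no test of them is given. The 2 smallest differences were those of Usp18 (0.21) and Ifi35 (0.45).

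Among 7 tested class I-like genes, whose products resemble class I chains but do not present peptides to CD8+ T cells, limma called Procr higher in the joined tumors than in Control, where 2.9% of all genes were called higher. Procr, the endothelial protein C receptor, had 0, 12.9 and 1.3 FPKM in Control, 186, 74.1 and 48.3 FPKM in GL261 and 89.1, 58.8 and 459 FPKM in B16 (5.11 for the joined tumors, limma adjusted p = 0.00481). Raet1e, a ligand of the NKG2D receptor, was listed at 0 in all control libraries, at 1.59, 20.3 and 17.1 FPKM in GL261 and at 10.5, 11 and 17.6 FPKM in B16, and it entered the test only through libraries of tumor-bearing mice, so no test against Control is given. Unlike for B2m, GL261 and B16 overlapped for both genes. Fcgrt, the neonatal Fc receptor, had 303 to 329 FPKM (Control), 135 to 322 FPKM (GL261) and 337 to 391 FPKM (B16), and Cd1d1 had 5.13 to 82.1, 3.11 to 28.5 and 0 to 22.3 FPKM. Neither passed in any comparison.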
